A study of Mus musculus with 6 samples.

Results

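NF-κB is a family of dimeric transcription factors built from 5 related proteins, which are encoded by Rela, Relb, Rel, Nfkb1 and Nfkb2. Their mRNAs were followed in primary wildtype mouse embryonic fibroblasts (MEFs) given TNFα. The genes were chosen by symbol, and they are 5 of the 20275 coding genes in the RefSeq table of the study. Where a gene had several transcripts, the one with the highest mean was used, and its 2 columns per library were averaged. The RefSeq transcripts used were NM_009045 (Rela), NM_009046 (Relb), NM_009044 (Rel), NM_008689 (Nfkb1) and NM_001177370 (Nfkb2).

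All cells were wildtype MEFs of a C57BL/6x 129 background, taken from embryos of 13.5 days and used at passage 4. The study's methods call its wildtype and RelA-/- embryos littermates. The untreated library received no TNFα, and the other libraries came from cells given TNFα at 20 ng/ml for 1.5, 6 or 24 hr. RNA was polyA-selected, each time had 1 RNA-seq library, and no time had a biological replicate, so that no test across replicates was possible. H3K4me3, a histone mark of active promoters, was profiled in untreated MEFs with 1 ChIP library and 1 input library. For the 24 hr RNA sample, the extraction field describes ChIP, whereas the title, the treatment and the library source follow the pattern of the other RNA samples. The columns of the expression table carry library names, which were tied to times through the study's list of sequencing depths.

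NF-κB subunits share a Rel homology domain, with which they dimerize and bind DNA. RelA, RelB and c-Rel (the product of Rel) carry transactivation domains. Nfkb1 and Nfkb2 encode the precursors p105 and p100, which are processed to the DNA-binding subunits p50 and p52 and which, unprocessed, hold other subunits in the cytoplasm in the manner of an IκB. TNFα acts mainly through the canonical pathway, in which the IκB kinase complex triggers degradation of IκBα and releases dimers of RelA and p50. The non-canonical pathway depends on the kinase NIK and on the processing of p100, and its typical dimer is RelB with p52. Several subunit genes are themselves known targets of NF-κB, and κB sites, the DNA motif to which the dimers bind, are known near their promoters.

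The κB consensus of 10 letters was therefore searched on both strands in the mm9 genome, in a window from 250 bases before to 50 bases after each start of a coding transcript in GENCODE. A match was found for 4 of the 5 genes, and 6 of their 12 windows, some of which overlap, held one. Among all 45993 windows of coding starts, 9.24% held a match. That is a share of windows, and no share per gene or for windows of like GC content was computed. The matches are shown with their flanks because they place the motif relative to the start of each gene. They are written 5′ to 3′ along the strand of the gene, with the 10 matching bases in capitals.
Relb, chr7:20214865-20214894, minus strand, match from base -97: gtgagcagcgGGGGTTTTCCcattcccttt
Relb, chr7:20214792-20214821, minus strand, match from base -24: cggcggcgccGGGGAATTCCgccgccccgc
Rel, chr11:23671042-23671071, minus strand, match from base -91: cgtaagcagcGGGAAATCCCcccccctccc
Nfkb1, chr3:135354461-135354490, minus strand, match from base 31: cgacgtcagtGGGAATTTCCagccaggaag
Nfkb2, chr19:46379178-46379207, plus strand, match from base -39: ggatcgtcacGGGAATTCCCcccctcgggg
Nfkb2, chr19:46379206-46379235, plus strand, match from base -11: ggggccgaaaGGGGCTTTCCcggctggagc
Nfkb2, second start, chr19:46379939-46379968, plus strand, match from base -236 on the other strand: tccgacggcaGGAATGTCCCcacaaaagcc
Nfkb2, second start, chr19:46380185-46380214, plus strand, match from base 11: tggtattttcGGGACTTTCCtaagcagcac

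The sites of Rel at -91 and of Nfkb2 at -39 also matched when read on the opposite strand, there and 1 base further on. The windows of Rela held no match, which says only that these letters were not in them. A looser pattern, GGG and CC with any 5 letters between them, was found for all 5 genes, but 56.0% of all windows held it. The windows of the 5 genes were rich in GC at most starts (73.7% at the most upstream start of Nfkb1, 75.3% for Rel, against a median of 56.3% over all windows). A match describes the sequence and was not tested as a binding site.

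The libraries differed as a whole, which bears on every ratio below. The deposited RPKM values are on a scale of their own, and their sum in the treated libraries was 1.19, 0.563 and 0.964 times that in the untreated one at 1.5, 6 and 24 hr. Over the 6050 coding genes with a mean above 100 on that scale, log2 ratios to untreated cells had a median of 0.44, -0.74 and 0.10 after 1.5, 6 and 24 hr. Each ratio of a subunit is therefore given as deposited and also relative to this median gene. The median also moved with the GC content of the transcript. Among genes with the GC content of Rela and Nfkb2 it was -0.42 at 1.5 hr, among genes with that of Rel 1.32. The smallest steps between low values gave what 1 read is worth. Divided by that, the summed RPKM of the 6 hr library was 0.494 times that of the untreated one. This sum gives more weight to reads on short transcripts, and it is not a count of reads. Of the fibroblast markers, all 7 were present, from Pdgfra at an RPKM of 112 to Col1a1 at 44002 in the untreated library. Of 8 leukocyte markers, 7 were listed. Ptprc, the pan-leukocyte CD45, was at 13.4, 30.8, 8.63 and 16.6 across the time course, and Cd68 at 605, 823, 202 and 312. The summed leukocyte markers were 991, 1281, 336 and 537, and Cd3e of T cells was at 0 throughout. Summed endothelial markers were at most 4.28 and epithelial ones at most 47.1, with Epcam at 0.

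In untreated MEFs, Nfkb2 and Rela had the highest subunit mRNA levels. Rela, the main transactivating subunit of the canonical pathway, was at an RPKM of 404 before TNFα and then at 845, 394 and 540 after 1.5, 6 and 24 hr. Its level was thus highest at 1.5 hr, while the untreated and 6 hr libraries were nearly equal as deposited. Relb, the transactivating partner of p52 in the non-canonical pathway, started at 141 and stood at 705, 330 and 407 at the 3 times. All treated libraries were above the untreated one.

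Rel encodes c-Rel, a subunit best known from lymphocytes, and it was the low member of the family here. Its RPKM was 8.04 untreated, 29.2 at 1.5 hr, 6.21 at 6 hr and 16.6 at 24 hr. By the length of its annotated transcript, these values correspond to about 24, 90, 16 and 57 reads, whereas each other subunit had about 399 or more in every library. Rel did not reach a mean of 100, the other 4 subunits did. Among coding genes above 0 in the untreated library, Rel lay at percentile 24.5 and Rela at 86.3. Like Rel, 4 of the 7 listed leukocyte markers, Ptprc and Emr1 (26.3, 74.0, 13.7 and 27.3) among them, were highest at 1.5 hr and lowest at 6 hr, as were 3 of the 7 fibroblast markers. Csf1r (295, 287, 90.1 and 124) was highest in the untreated library. The median log2 ratios of the coding genes (0.44, -0.74 and 0.10) had this same shape, so it is not particular to leukocyte markers. The share of all coding genes with it was not counted. The part of leukocyte RNA in the values of Rel was not tested. In RNA from whole cultures, fewer cells of a type and less RNA per cell cannot be told apart.

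The precursor genes had unlike levels. Nfkb1 stood at an RPKM of 115 before TNFα and at 544, 150 and 212 after 1.5, 6 and 24 hr. Its level at 6 hr was 1.30-fold the starting one as deposited, but 2.17-fold relative to the median coding gene. Nfkb2 went from 429 to 1336 at 1.5 hr and stayed at 906 and 865 at 6 and 24 hr. It had the highest level of the 5 in every library. At 6 hr it lay at percentile 95.9 of the coding genes, against 87.0 in the untreated library.

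The R1 and R2 columns of a library gave nearly the same levels. Each lay within 25.7 units of their mean (the widest, Relb at 24 hr), and for Rel within 0.876. What the columns hold is not described in the study, and they were not used as replicates. The order of the levels was Nfkb2, Rela, Relb, Nfkb1 and Rel in all 4 libraries. In the untreated library, Nfkb2 was at 433 and 424 in the columns and Rela at 410 and 398, the narrowest gap between neighbours in that order. The columns of neighbouring genes did not overlap in any library, but the spread between cultures was not measured.

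**Figure D1:**
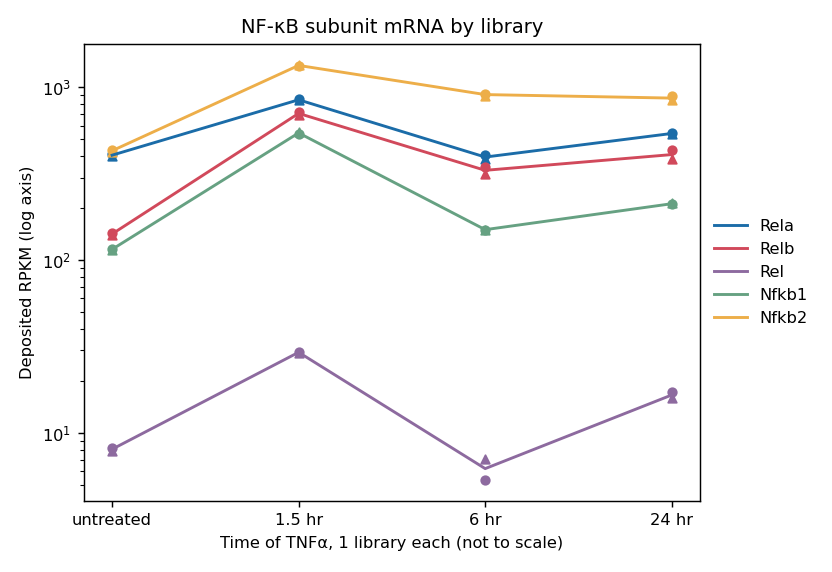
RPKM as deposited (log axis) of the 5 subunits in the untreated library and after 1.5, 6 and 24 hr of TNFα, with circles for the R1 column, triangles for the R2 column and lines through their mean, 1 library per time. Nfkb2 is the highest in each library (429 to 1336), Rel the lowest (6.21 to 29.2), and each subunit has its highest value at 1.5 hr.

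At 1.5 hr, all 5 subunits had levels at least 2-fold above those of untreated cells, as did 29.8% of the coding genes. The shares here and at the later times are over coding genes with a mean above 100, which Rel did not reach. With no such filter the share higher as deposited was 28.8% at 1.5 hr and 17.5% at 24 hr. Relb had the largest ratio, 4.99-fold (log2 ratio 2.32, 95% counting interval 2.16 to 2.48), followed by Nfkb1 at 4.72-fold (2.24, 2.10 to 2.38). Their intervals overlapped. The log2 ratio of Rel was 1.86 (1.18 to 2.56), that of Nfkb2 1.64 (1.56 to 1.73), and that of Rela 1.06 (0.96 to 1.17). The interval of Rela did not reach those of the others. These intervals come from the approximate reads, cover counting error only, and say nothing of the spread between cultures.

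Relative to the median coding gene, the 1.5 hr log2 values were 1.88 for Relb, 1.80 for Nfkb1, 1.42 for Rel, 1.20 for Nfkb2 and 0.62 for Rela. On that scale 4 of the 5 were at least 2-fold higher, as were 15.8% of the coding genes, and Rela was 1.54-fold higher. Among the coding genes, the ratio of Relb lay at percentile 97.6, that of Nfkb1 at 97.1 and that of Rela at 72.4. GC content moved these values most for the members at its extremes. Centred on genes of like GC content, Rela (59.4% GC) had 1.48, Nfkb2 (59.3%) 2.06 and Rel (44.1%) 0.54. On this scale 4 of the 5, Rela among them but not Rel, were at least 2-fold higher. So were 10.8% of the coding genes with a GC value.

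At 6 hr, Relb and Nfkb2 remained well above the untreated library, and the other subunits were closer to it. Relb (log2 ratio 1.22, counting interval 1.05 to 1.40) and Nfkb2 (1.08, 0.99 to 1.17) were at least 2-fold higher as deposited, which held for 1.83% of the coding genes. Nfkb1 was at 0.38 (0.20 to 0.56), Rela at -0.04 (-0.16 to 0.09) and Rel at -0.37 (-1.41 to 0.57). For Rela and Rel the counting interval included 0. In the R1 column Rel was at -0.62 and in the R2 column at -0.15, with about 13 and 19 reads, so a difference in either direction was not detectable at this depth.

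Since the median coding gene was at -0.74 at 6 hr, the values relative to it were higher, 1.96 for Relb, 1.82 for Nfkb2, 1.12 for Nfkb1, 0.70 for Rela and 0.37 for Rel. On this scale 3 subunits were at least 2-fold higher, against 7.21% of the coding genes. The direction of Rela and Rel at 6 hr thus depended on the scaling. As deposited both were just below the untreated library, and relative to the median gene both were above it. Centred on genes of like GC content, Rela had 0.77 but Rel -0.18. On that scale 3 subunits were at least 2-fold higher, as were 4.94% of the coding genes with a GC value. The ratio of Relb lay at percentile 98.6 of the coding genes and that of Nfkb2 at 98.3. Both ranked higher among the coding genes at 6 hr than at 1.5 hr, where Nfkb2 lay at 88.6.

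At 24 hr, Relb was again the highest, with a log2 ratio of 1.53 (counting interval 1.36 to 1.69). Rel was at 1.04 (0.30 to 1.76) and Nfkb2 at 1.01 (0.92 to 1.10), both just past a 2-fold difference, while Nfkb1 at 0.88 (0.72 to 1.03) and Rela at 0.42 (0.31 to 0.52) were short of it. Of the coding genes, 16.8% were at least 2-fold higher as deposited. Relative to the median gene only Relb, at 1.42, remained past 2-fold, against 14.4% of the coding genes, and Rel and Nfkb2 stood at 0.94 and 0.91. Nfkb2 was at 0.99 in the R2 column alone. Centred on genes of like GC content, Rela had 1.06, Nfkb2 1.65 and Rel 0.18. By these values 3 of the 5, Rela among them but not Rel, were at least 2-fold higher. So were 10.5% of the coding genes with a GC value. No subunit was at least 2-fold lower at any time on either scale. Of the coding genes, 7.97%, 31.5% and 12.8% were so at 1.5, 6 and 24 hr as deposited, and 17.4%, 3.26% and 15.2% relative to the median gene. As deposited, Relb and Nfkb2 were at least 2-fold higher at all 3 times, as were 1.07% of the coding genes. Measured against the median gene this held for Relb alone, with 4.55% of the coding genes.

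**Figure D2:**
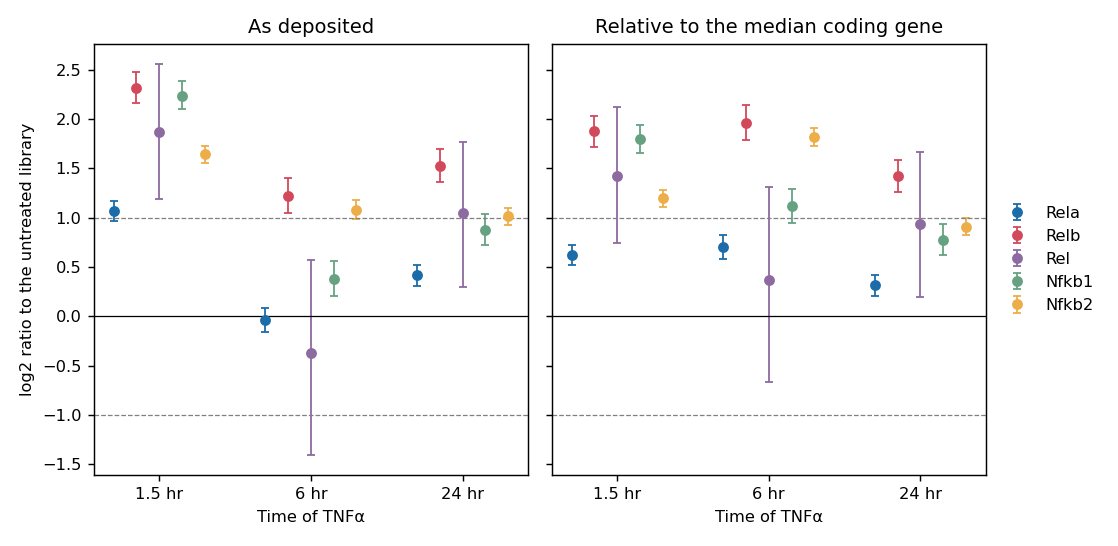
Log2 ratio of each subunit to the untreated library at 1.5, 6 and 24 hr of TNFα, as deposited (left) and relative to the median coding gene (right), with 95% counting intervals from the approximate reads as bars and dashed lines at a 2-fold difference. Relb stays above the upper dashed line at each time in both panels, and the bars of Rel are the widest.

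Between 1.5 and 6 hr, the log2 step as deposited was -2.24 for Rel, the largest of the 5, -1.86 for Nfkb1 and -0.56 for Nfkb2. Relative to the median coding gene these steps were -1.05 for Rel, -0.68 for Nfkb1 and 0.62 for Nfkb2, the last in the opposite direction. Those of Rela (0.08) and Relb (0.09) were close to the median gene. From 6 to 24 hr, the relative step was -0.91 for Nfkb2, -0.54 for Relb, -0.39 for Rela, -0.34 for Nfkb1 and 0.57 for Rel. These steps were not centred on GC content. Centred on it, the ratios to untreated cells were lower at 6 hr than at 1.5 hr for Nfkb2 (1.89 and 2.06) and Relb (2.20 and 2.35). Those of Rela were 1.48, 0.77 and 1.06 at 1.5, 6 and 24 hr. The directions of Rela, and those of Nfkb2 and Relb up to 6 hr, thus depended on GC content. Rel and Nfkb1 kept their directions.

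Because a factor that applies to a whole library cancels in a ratio of genes within it, the makeup of the subunit pool was compared next. An effect of GC content does not cancel in this way, and the shares were not centred on it. The summed RPKM of the 5 subunits was 1097 untreated and 3459, 1786 and 2040 after 1.5, 6 and 24 hr. Rela made up 36.8% of this sum in the untreated library and 24.4%, 22.1% and 26.5% at 1.5, 6 and 24 hr. Relb went from 12.9% to 20.4%, 18.5% and 20.0%. Thus Rela had a smaller share and Relb a larger share in each treated library than in the untreated one, in both columns.

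The precursor genes took up different parts of the pool at different times. Nfkb1 held 10.5% untreated, 15.7% at 1.5 hr, 8.39% at 6 hr and 10.4% at 24 hr. Nfkb2 held 39.1%, 38.6%, 50.7% and 42.4%, with its largest share at 6 hr. Rel stayed below 1 percent throughout, at 0.732%, 0.845%, 0.348% and 0.812%. The precursors together were 0.982 times the sum of the 3 transactivating subunits in the untreated library and 1.19, 1.45 and 1.12 times at the 3 later times.

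**Figure D3:**
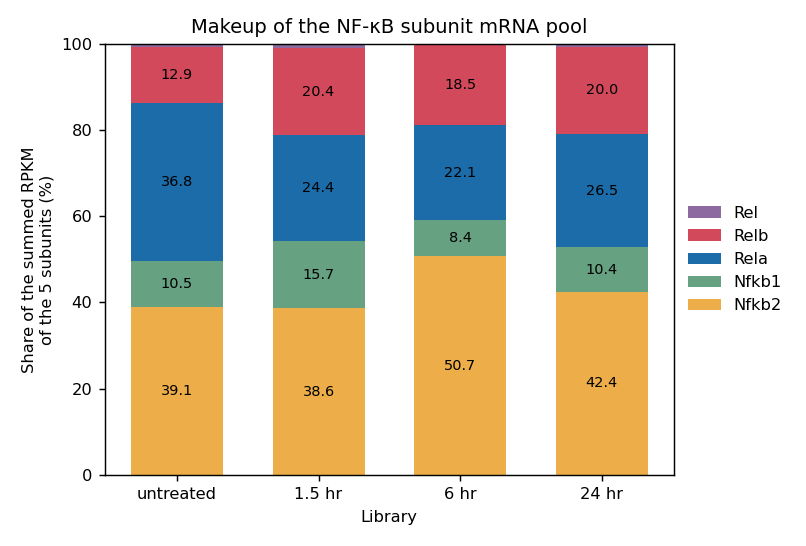
Share of each subunit in the summed RPKM of the 5 subunits (percent) in the untreated library and at 1.5, 6 and 24 hr of TNFα, 1 library per time, R1 and R2 averaged. The Rela segment is 36.8% untreated and between 22.1% and 26.5% in treated cells, the Relb segment is between 18.5% and 20.4% in treated cells against 12.9% before, and Nfkb2 reaches 50.7% at 6 hr.

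The ratio of Relb to Rela, the transactivating subunits of the non-canonical and the canonical dimer, was 0.350 before TNFα and 0.834, 0.838 and 0.755 after 1.5, 6 and 24 hr. It was therefore higher in each treated library, with a log2 change of 1.25, 1.26 and 1.11, and R1 and R2 alone gave between 1.03 and 1.29. Centred on GC content the changes were 0.87, 1.43 and 0.76. The ratio of Nfkb2 to Nfkb1 was 3.72, 2.46, 6.05 and 4.08. Its log2 change at 1.5 hr was -0.60 but 0.24 after GC centring, so this direction depended on GC content, while the change at 6 hr (0.70 and 0.71) did not. At 24 hr it was 0.14, and 0.83 after GC centring.

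Only Nfkb2 was listed with several transcripts. The other 2 gave log2 ratios of 1.63 and 1.64 at 1.5 hr, 1.11 and 1.08 at 6 hr and 1.03 and 1.01 at 24 hr, close to those of the transcript used (1.64, 1.08 and 1.01). Since they share most of their exons, this is no independent measurement.

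All 5 genes had an H3K4me3 peak over an annotated start in untreated MEFs, as did 53.8% of coding genes (54.2% within 1 kb). These shares take in genes at any RNA level, and the share among genes with levels like those of the subunits was not counted. For Rela (chromosome 19, 5637483 to 5648130, plus strand) the peak ran from 5636336 to 5640510 with 1876 tags and a fold enrichment of 40.9 over input, the most tags of the 5. That of Relb (chromosome 7, 20191566 to 20214787, minus strand) was the smallest, 2824 bp with 724 tags and a fold enrichment of 52.9. By tags, Relb lay at percentile 27.6 of the 11157 peaks and Rela at 87.6.

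Rel (chromosome 11, 23641514 to 23670970, minus strand) had a peak of 3470 bp with 1344 tags and a fold enrichment of 41.8, at percentile 67.8 by tags, although its RNA was low. Among coding genes with an untreated RPKM above 0 and up to 10, 24.6% had a peak within 1 kb. The bound of 10 was chosen with the value of Rel known. The peak of Nfkb1 (chromosome 3, 135247619 to 135354511, minus strand) had 1512 tags over 4545 bp and the highest fold enrichment of the family, 82.6, at the most upstream start only. At the other 3 annotated coding starts of Nfkb1 there was none within 1 kb. At Nfkb2 (chromosome 19, 46379227 to 46386580, plus strand), a single peak of 4074 bp with 1698 tags covered all 3 annotated starts. The κB matches shown above all lay within these peaks. The mark was measured in untreated cells alone, so a change with TNFα was not analysed here.

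**Figure D4:**
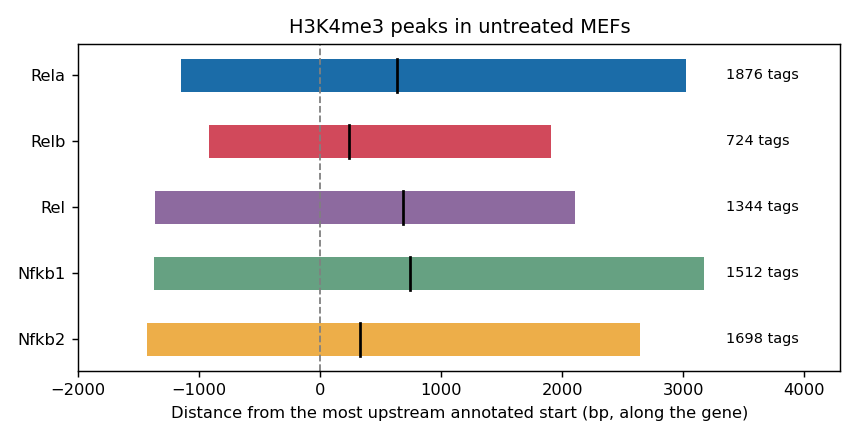
Extent of the H3K4me3 peak at each subunit gene in untreated MEFs, in bp from the most upstream annotated coding start along the direction of the gene (dashed line at 0), with the summit as a black line and the number of tags at the right. All 5 peaks cover the start, with summits between 240 and 746 bp downstream of it, and that of Relb is the shortest.

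For the rest of the pathway, 40 genes in 6 roles were examined, of which 27 had a mean above 100. As deposited, 12 of the 27 were at least 2-fold higher at 1 or more times, against 31.1% of coding genes, and 8 were at least 2-fold lower, against 38.4%. Relative to the median coding gene the numbers were 11 (20.1% of coding genes) and 3 (21.0%). The median log2 ratio of the 27 relative to that gene was 0.30, 0.48 and 0.16 after 1.5, 6 and 24 hr. Of the 12 genes higher as deposited, 5 (Nfkbie, Map3k7, Birc3, Tnfaip3 and Fbxw11) were below 100 untreated and passed the limit on the mean only through treated libraries. Of the 8 lower ones, Map3k14 was above 100 in the untreated library alone. The list was drawn up with earlier results of these data known. None of the ratios of these pathway genes was centred on GC content, with which the median moved, so contrasts between them may hold a part of that effect.

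Of the IκB family, which hold NF-κB in the cytoplasm or modulate it in the nucleus, 5 of 6 had a mean above 100. At 1.5 hr, 3 of these were at least 2-fold higher on both scales, against 29.8% of coding genes as deposited and 15.8% relative to the median gene. Nfkbia, encoding IκBα, went from an RPKM of 319 to 7211, 2655 and 5772, and Nfkbie, encoding IκBε, from 43.0 to 530, 225 and 210. Nfkbib, encoding IκBβ, had log2 ratios of 2.16, 0.28 and 1.55. Nfkbia thus stayed far above its untreated level at 24 hr, when Relb was at 2.88-fold. Bcl3, a nuclear IκB protein that binds p50 and p52, had 0.92, 0.48 and 0.19, and relative to the median gene it passed 2-fold only at 6 hr (1.22). For Nfkbiz, another nuclear member, named to complete the family after its values were seen, the ratios were 0.08, -0.11 and 0.04.

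Among the kinases, Map3k14, which encodes NIK of the non-canonical pathway, was lower at each time, from 185 to 97.6, 71.0 and 79.6, with log2 ratios of -0.92, -1.38 and -1.22. Tab1, a partner of the kinase TAK1, had -1.18, -1.30 and -1.44. Relative to the median gene both were at least 2-fold lower at 1.5 and 24 hr but not at 6 hr, where the values were -0.64 and -0.56. In contrast Map3k7, TAK1 itself, had 1.65, -0.08 and 1.12, and Tab2, another TAK1 partner, 1.73, -0.26 and 1.34.

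In the TNF receptor complex, Birc3, encoding the ubiquitin ligase cIAP2, had log2 ratios of 3.30, 1.32 and 2.43. Ripk1 had 1.12 at 1.5 hr, but 0.67 relative to the median gene. Tnfrsf1a, the receptor TNFR1, and its adaptor Tradd were at least 2-fold lower at 6 hr as deposited (-1.17 and -1.07), but at -0.43 and -0.33 relative to that gene. The ubiquitin-editing inhibitor Tnfaip3 (A20) went from an RPKM of 7.13 to 399, 70.8 and 149, the largest ratio of the list at 1.5 hr (5.81), and its partner Tnip1 had 1.64, 0.55 and 1.42. Rnf31 of the linear ubiquitin ligase was at -0.63, -0.42 and -1.21 (0.32 at 6 hr relative to the median gene), and Sharpin of the same complex at -0.47, -1.07 and -0.61, the latter at -0.33 relative to the median gene at 6 hr.

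Of the ubiquitin ligase that marks IκB and p100, Fbxw11 (βTrCP2) had log2 ratios of 1.76, -0.15 and 1.17, Skp1a 1.08, -0.40 and 0.77, and Cul1 0.74, -1.16 and 0.36. Against the median gene, Skp1a at 1.5 hr (0.64) and Cul1 at 6 hr (-0.42) were within 2-fold. Of the receptors that feed the non-canonical pathway, Tnfrsf12a, the TWEAK receptor, went from 331 to 1255, 344 and 1021. Ltbr, the lymphotoxin β receptor, had -0.08, -1.43 and -0.29, and at 6 hr -0.69 relative to the median gene.

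**Figure D5:**
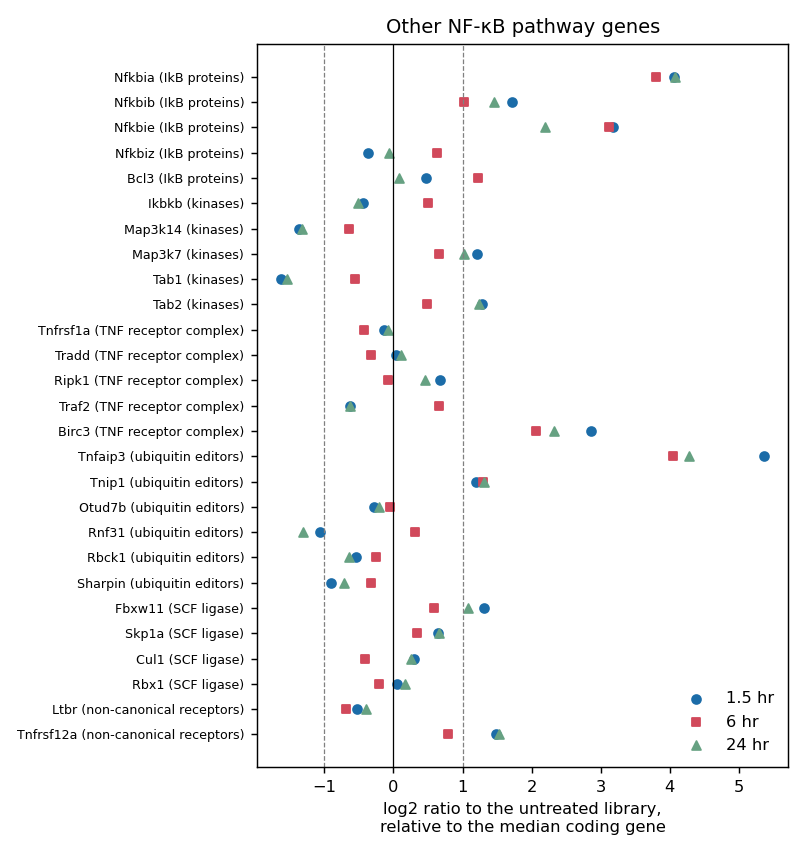
Log2 ratio to the untreated library, relative to the median coding gene, of the 27 other pathway genes with a mean above 100, at 1.5 hr (circles), 6 hr (squares) and 24 hr (triangles), with dashed lines at a 2-fold difference and the role of each gene in parentheses. Tnfaip3, Nfkbia and Nfkbie lie farthest to the right, and Tab1 and Map3k14 have the lowest values at 1.5 and 24 hr.

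The coding genes with the time course most like that of each subunit were found by the distance between their 3 log2 ratios to the untreated library, over 4 libraries. This distance does not change when a library is rescaled as a whole, and smaller means more alike. The ratios were not centred on GC content, with which the median moved, and its effect on the distances was not tested. The nearest to Rela were Ube2e3 (0.02), Gnb1 (0.05) and Tpbg (0.06), and to Rel they were Prdx1 (0.10), Pdgfrl (0.13) and Hn1l (0.14). For the other subunits the nearest genes lay farther away. The nearest to Relb were Mtx2 (0.37), Snx7 (0.40) and Trim47 (0.40), to Nfkb1 Uap1 (0.33), Mettl9 (0.38) and Ctsc (0.39), and to Nfkb2 Dhx15 (0.17), H2-Q8 (0.38) and Btg2 (0.39).

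No subunit was among the 3 nearest of another. Among 6049 genes ranked by distance from Nfkb2, Relb was number 74 (0.86) and Nfkb1 number 101 (0.93), while Rela was number 768 (1.39). From Relb, Nfkb2 was number 82 and Rela number 1248. Relb and Nfkb2 were thus the closest pair among the 4 subunits with a mean above 100, and Relb and Rela the farthest (2.09). Rel lay at 0.855 from Nfkb1, slightly closer than Relb and Nfkb2 (0.862). Centred on GC content, however, the ratios at 1.5, 6 and 24 hr were 0.54, -0.18 and 0.18 for Rel. Those of Nfkb1 were then 1.81, 1.18 and 0.82. With about 16 to 90 reads per library, the distances of Rel, and so its nearest genes, are uncertain. Each distance rests on 1 library per time and is a description only.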

How the data were processed

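RNA was sequenced as directional paired-end polyA libraries, 1 per time. Per the study's methods, the authors mapped RNA reads with TopHat and ChIP reads with Bowtie to mm9, and deposited RPKM values per RefSeq transcript, here on a scale of their own, with 2 columns (R1 and R2) per library. For H3K4me3 the authors deposited MACS peaks with a tag count, a score (−log10 of the p-value, times a constant), a fold enrichment over input and an FDR in percent.

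Levels were used as deposited. Log2 ratios to the untreated library had no pseudocount, and a call was a 2-fold difference. Coding genes (1 transcript each) with a mean above 100 served as background. Low values stepped by what 1 read is worth (536 of 758 low genes within 5% of whole reads), which gave approximate reads and exact (Clopper-Pearson) 95% intervals. These compare libraries, not conditions, and were chosen after seeing the data. GC centring used 20 bins of transcript GC content from GENCODE. Peaks within 1 kb of a start were assigned to it. No p-value was computed, since no time had replicates. Calculations used Python 3.11.15, numpy 2.4.6, pandas 2.3.3 and scipy 1.17.1, and the scripts were tested on simulated data. Named were the 5 subunits, pathway genes with a mean above 100 and a 2-fold difference at 1 or more times, and the 3 genes with the nearest time course to each subunit. The members and lists were chosen with earlier results of these data known.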

Additional observations from a re-analysis of the deposited data

How the results depend on the processing

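Each time had 1 library, so the values carry no biological error, and leaving out a replicate was not possible. No paired analysis was possible because the groups held 1 library each and the results come from no test. Of the counts of subunits at least 2-fold higher, that at 1.5 hr (5) was 3 with a pseudocount of 100. That at 6 hr (2) was 0 with a pseudocount of 100 and 0 at a 3-fold limit, which 0.909% of the coding genes passed. That at 24 hr (3) was 1 with the median of ratios over coding transcripts or over all entries (15.2% and 15.5% of the coding genes). It was 1 with a pseudocount of 10 or 100, and 0 at a 3-fold limit (5.21% of the coding genes). No share of coding genes was computed with a pseudocount. The pathway count of 12 higher among 27 genes was 19 among all 40 with no filter on low values. The share of coding genes higher at 1 or more times was not computed without the filter. The pathway count of 8 lower among 27 was 3 with the median of ratios over coding transcripts. Under the other alternatives these counts stayed within 1.5 times. Over 10 alternatives, Relb ranged from 1.74 to 2.35 at 1.5 hr and from 1.07 to 1.82 at 24 hr, and at these times it was at least 2-fold higher in all 10. At 6 hr Relb ranged from 0.83 to 2.20 and was at least 2-fold higher in 9 of 10, the exception being the pseudocount of 100 (0.83). The value of Rela at 6 hr ranged from -0.06 to 0.79 and that of Rel from -0.62 to 0.46, so their direction depended on the scaling. Rela at 1.5 hr ranged from 0.63 to 1.48 and was at least 2-fold higher in 5 of 10. At 24 hr Rel ranged from 0.11 to 1.10 and passed 2-fold in 5 of 10, and Nfkb2 from 0.87 to 1.65, past it in 4 of 10. Of the coding genes, 31.5% were at least 2-fold lower at 6 hr as deposited and 3.26% relative to the median gene.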
